A study of Mus musculus with 4 samples.

Results

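The cells described here are the barcodes in which more than 4500 genes had at least 1 unique molecular identifier (UMI, a tag that marks 1 captured RNA molecule). They were chosen by that count alone, and 7828 of the 46001 barcodes of the series passed it. The study kept cells with 1000 to 4500 detected genes, a limit meant to leave out droplets that took up more than 1 cell, so these barcodes did not enter its clusters. Here they were sorted into cell types by marker genes, and their germ cells were set beside the germ cells within the limit.

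The 4 libraries came from C57BL/6 mice at P14 (14 days after birth), each from the dispersed testicular region that holds the rete testis (RT) and adjoining seminiferous tubules, with 3 pups pooled per library and 5000 cells aimed for. The 2 control libraries carry the genotype SF1Cre in their labels, whereas the study's methods describe control mice as *Sox17*flox/flox without Cre. The 2 *Sox17*-cKO libraries carry SF1Cre:Sox17flox/flox. SF1Cre drives Cre from *Nr5a1*, the gene of steroidogenic factor 1, so the deletion is directed at the somatic cells of the gonad and not at germ cells. The exons lost in the deletion are not named in the sources used here, so a *Sox17* UMI does not show an intact transcript. The study describes the libraries of a genotype as independent biological replicates, and p-values between genotypes measure the spread between these pools.

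At P14 the mouse testis is in its first wave of spermatogenesis. Undifferentiated spermatogonia renew the pool, differentiating spermatogonia divide and enter meiosis, and spermatocytes pass through preleptotene, leptotene, zygotene and pachytene while their chromosomes pair and recombine. Sertoli cells surround the germ cells in the tubule, Leydig and other interstitial cells lie between tubules, and the RT epithelium lines the channel into which the tubules open. The number of genes detected in a droplet depends on how much RNA the cell holds and how deeply it was read, and a droplet with a pair of cells can show genes of both.

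The targeted gene behaved as the labels say in RT-like cells, and it was also lower in endothelial-like cells, as given below. In RT-like cells with over 4500 genes, *Sox17* (mm10, chromosome 1, 4490931 to 4497354, minus strand) stood at 235 and 269 CPM (counts scaled to 1000000 UMIs of those cells) in controls 1 and 2 and at 23.9 and 28.5 CPM in *Sox17*-cKO 1 and 2. The replicate numbers also separated the libraries: the count tables of replicate 1 in both genotypes carry Cell Ranger version 6.0.2 and those of replicate 2 carry 6.1.2, and several values below followed the number rather than the genotype. Total UMIs per library lay between 89969877 and 107203219. Among the members 13 barcode sequences occurred in more than 1 library, which touched 26 of the 7828.

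The share of barcodes with over 4500 genes was 15.8% and 22.0% in controls 1 and 2 (2108 of 13364 and 2067 of 9388) and 15.7% in both *Sox17*-cKO libraries (1931 of 12262 and 1722 of 10987). Control 2 was high and the other libraries were alike. The mean was 17.3% ± 3.14 (SD, n = 4). The exact 95% binomial interval reached from 15.2 to 16.4% in control 1 and from 21.2 to 22.9% in control 2, and such intervals cover counting error only. The mean was 18.9% in controls and 15.7% in *Sox17*-cKO, with a two-sided exact permutation p of 0.333, the smallest that 2 against 2 libraries can give. A further 22567 barcodes held 1000 to 4500 genes, and the over-4500 group made up 25.8% ± 2.08 of all barcodes with at least 1000 genes.

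These barcodes carried 55.8% ± 2.63 of all UMIs. Their median was 5658.5 genes (quartiles 5013.75 and 6523, highest 10722) and 23647 UMIs (lowest 11298, highest 174634). The median UMI count was 22739.5, 25327, 22408 and 24794.5 in controls 1 and 2 and *Sox17*-cKO 1 and 2, against 6027, 7872, 5040 and 6420.5 within the limit. At the threshold itself there was no step: 429 barcodes lay within 100 genes above it and 442 within 100 genes below it. Over 6000 genes were found in 3028 barcodes. The median share of mitochondrial UMIs was 8.10%, 7.85%, 6.69% and 7.50% in the same order, against 8.83%, 5.77%, 7.16% and 5.45% within the limit. The study also states a limit of 1% mitochondrial UMIs, which the median barcode would miss on either side of the gene limit, and it was not applied here.

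To name the cells, all barcodes with at least 1000 genes were clustered together, and a cluster was given a name only from lists of marker genes. Germ-like cells made up most of the barcodes with over 4500 genes, 4691 of 7828. Their share was 56.2% and 61.8% in controls 1 and 2 and 65.8% and 55.7% in *Sox17*-cKO 1 and 2. Within 1000 to 4500 genes the same libraries held 46.3%, 25.3%, 48.8% and 23.4% germ-like cells, so the share was higher over the limit in 4 of 4 libraries (mean 59.9% ± 4.84 against 35.9% ± 13.5). Over 4500 genes the libraries lay closer together than below it. Since the gene count chose the cells, comparisons of levels or shares between the gene ranges are descriptions, and only whether the genotype difference changed across them was tested.

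Sertoli-like cells were next, with 1390 barcodes. They made up 15.2%, 17.7%, 14.7% and 24.4% of the members in controls 1 and 2 and *Sox17*-cKO 1 and 2, a mean of 18.0% ± 4.46 against 23.4% ± 3.57 within the limit. A cluster that carried germ and Sertoli genes together held 845 barcodes, 496 and 37 in controls 1 and 2 and 260 and 52 in *Sox17*-cKO 1 and 2. Its mean share was 10.5% ± 10.2 over the limit and 0.729% ± 0.901 within it, and without control 1 the mean over the limit was 6.09%. The spread followed the replicate number, with both replicate 1 libraries high.

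The remaining barcodes were divided among 7 further classes. RT-like cells numbered 263 (34, 129, 10 and 90 in controls 1 and 2 and *Sox17*-cKO 1 and 2), interstitial-like 150 (19, 67, 37 and 27), Leydig-like 77 (2, 42, 11 and 22), endothelial-like 73 (5, 29, 16 and 23) and macrophage-like 29 (0, 11, 7 and 11). A cluster with Sertoli and interstitial genes held 62 (8, 18, 6 and 30), and 248 fell in clusters that could not be named. Interstitial-like cells, 31.3% ± 17.2 of the cells within the limit, were 1.91% ± 0.984 over it and were fewer in 4 of 4 libraries. RT-like cells went the other way in 3 of 4 libraries, from 1.04% ± 0.510 to 3.40% ± 2.76, and endothelial-like cells in all 4, from 0.318% ± 0.172 to 0.951% ± 0.541. No class share passed a test between genotypes, with exact permutation p from 0.667 to 1 and an adjusted value of 1 throughout. With so few libraries this test cannot give a p under 0.333, so no share could have passed.

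**Figure D1:**
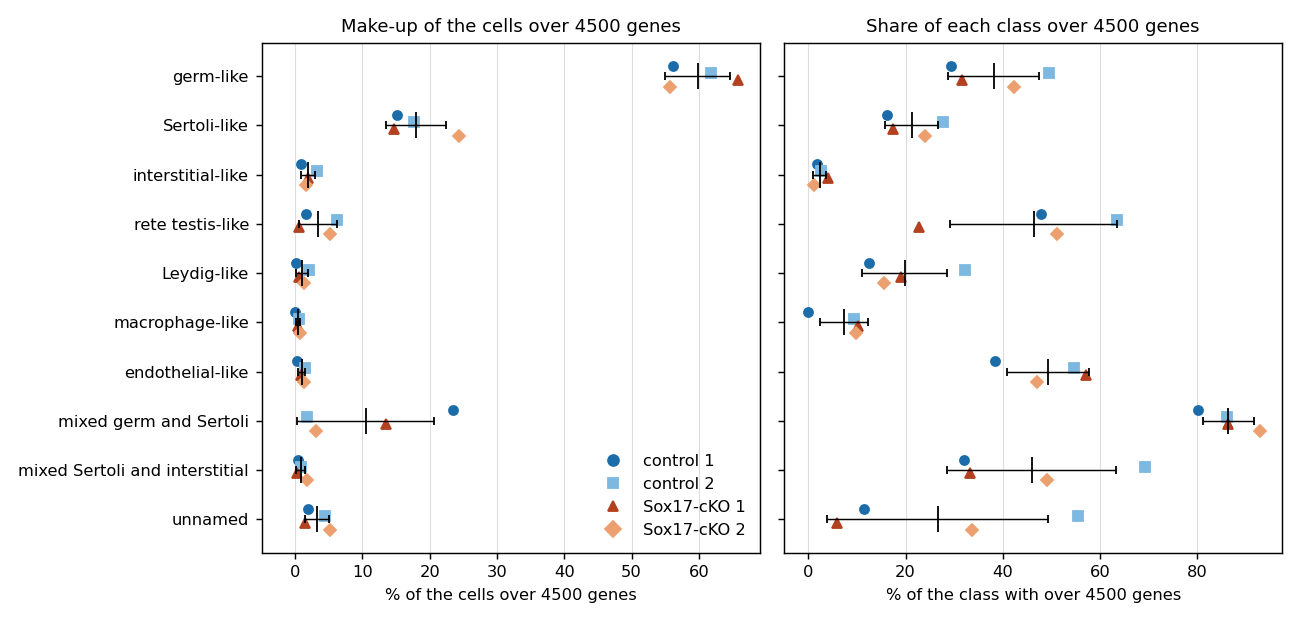
Left, the percent of the barcodes with over 4500 genes that fell in each class. Right, the percent of each class that had over 4500 genes. Points are the 4 libraries and bars the mean ± SD. Germ-like cells made up 55.7 to 65.8% of the barcodes over the limit, and 86.4% of the cluster with germ and Sertoli genes lay above it on average.

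Read by class, the limit removed very different parts of each cell type. It took 86.4% ± 5.20 of the mixed germ and Sertoli cluster, 49.3% ± 8.44 of endothelial-like cells, 46.3% ± 17.1 of RT-like cells, 38.2% ± 9.38 of germ-like cells, 21.3% ± 5.46 of Sertoli-like cells and 2.37% ± 1.30 of interstitial-like cells (SD, n = 4 libraries). For RT-like cells the libraries ranged widely, with 47.9% and 63.5% in controls 1 and 2 and 22.7% and 51.1% in *Sox17*-cKO 1 and 2. Taking all libraries together, 263 RT-like cells lay over the limit and 231 within it.

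Marker genes had named the clusters, so their levels in the cells over the limit are given as a description. In germ-like cells *Ddx4*, a germ cell RNA helicase, stood at 440 ± 83.2 CPM against 337 ± 27.5 within the limit, and *Dazl*, an RNA-binding protein of germ cells, at 1451 ± 60.8 against 1665 ± 204. *Tdrd1*, of the piRNA pathway, was at 119 against 64.2 CPM. *Tex101*, a germ cell surface protein, was at 397 against 730 CPM and *Smc1b*, a meiotic cohesin, at 742 against 1149 CPM. The 15 germ genes summed to 5341 ± 454 CPM against 5996 ± 510 within the limit, so the members of the list moved in both directions. Sertoli genes summed to 416 ± 265 CPM in the germ-like cells over the limit, from 680 and 606 in control 1 and *Sox17*-cKO 1 to 175 and 201 in control 2 and *Sox17*-cKO 2.

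In the Sertoli-like cells the 17 Sertoli genes summed to 18841 ± 960 CPM against 19412 ± 661 within the limit. The germ genes summed to 387 ± 213 against 456 ± 247. *Sox9*, the transcription factor of Sertoli cell fate, stood at 523 ± 70.4 CPM against 374 ± 69.0 within the limit. *Cst9*, a cystatin of Sertoli cells, went the other way, at 3079 ± 383 against 3874 ± 462 CPM. *Cst12*, another cystatin, stood at 3989 ± 563 against 3871 ± 404. *Amhr2*, the receptor of anti-Müllerian hormone, stood at 888 ± 190 against 771 ± 114. *Amh* itself was low, at 38.6 ± 20.9 against 33.0 ± 18.3 CPM. The members of the list thus moved in both directions. The cells came from cluster 5 (834, led by *Wfdc18*, *Tmem255a* and *Cidea*), in which 40.5% ± 12.9 of cells passed the limit, and cluster 8 (531, led by *Gm2044*, *AC167229.1* and *Gsta2*), in which 32.2% ± 10.1 did. A further Sertoli-like cluster of 2725 cells, whose median was 1392 genes, gave 25. The median mitochondrial share of the Sertoli-like cells over the limit was 11.4%.

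The RT-like cells held *Pax8*, a transcription factor of RT and other duct epithelia, at 369 ± 101 CPM, the keratin *Krt8* at 155 ± 62.8 and the cadherin *Cdh1* at 131 ± 25.9. Their leading genes were *1500015O10Rik*, *Rmst* and *Mia*. The 9 RT genes summed to 4828 ± 1021 CPM in them and to 7.81 ± 3.94 CPM in the Sertoli-like cells. Sertoli genes summed to 3190 ± 506 CPM and germ genes to 227 ± 138 in the RT-like cells. These were the cells with the most detected genes, with a median of 7264 genes and 39174 UMIs, against 5482 genes and 22240 UMIs in germ-like cells and 5755.5 genes and 25956.5 UMIs in Sertoli-like cells.

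Among the smaller classes, endothelial-like cells held *Pecam1*, an endothelial adhesion molecule, at 750 ± 151 CPM and the junction gene *Cldn5* at 1318 ± 214. Their *Sox17* stood at 319 and 187 CPM in controls 1 and 2 and at 70.4 and 60.6 CPM in *Sox17*-cKO 1 and 2, from 51, 220, 34 and 52 UMIs, and the groups did not overlap. Within the limit the same class stood at 508, 344, 96.4 and 101 CPM. The study, by in situ hybridization in older mice, reports the *Sox17* signal of interstitial vessels as kept in *Sox17*-cKO. In its single-cell data from these libraries, within its gene limit, it reports the decrease as specific to the RT cluster. The values here differ from both reports, and the reason was not tested. At resolution 0.8 the class split into a cluster led by *Ctla2a*, *Ly6c1* and *Ptprb* and another led by *Ccl21a*, *Mmrn1* and *Lyve1*. Of the cells over the limit, the former gave 5, 14, 10 and 19 in controls 1 and 2 and *Sox17*-cKO 1 and 2. The latter, with *Prox1* and *Flt4* also among its leading genes, gave 0, 15, 6 and 4. The make-up of the class thus differed between libraries, and its part in the *Sox17* values was not tested. Haemoglobin and T cell genes summed to 3147 CPM in the endothelial-like cells of *Sox17*-cKO 1 and to 644, 1.70 and 0 CPM in those of *Sox17*-cKO 2, control 2 and control 1; their part in the *Sox17* values was not tested. Leydig-like cells held *Cyp11a1*, which makes pregnenolone from cholesterol, at 2711 ± 665 CPM against 1176 ± 576 within the limit. *Hsd3b1*, *Star* and *Lhcgr* were also higher on average, and *Cyp17a1* was close, at 1508 ± 748 against 1437 ± 592. *Hsd3b6*, at 288 ± 211 against 369 ± 208, and *Insl3*, at 551 ± 556 against 679 ± 579, were lower. The 7 Leydig genes summed to 8120 ± 2477 against 5408 ± 824 CPM, and control 1 gave only 2 of these cells. *Nr5a1*, whose promoter drives the Cre, was at 126 ± 37.1 CPM in Leydig-like, 91.6 ± 37.9 in Sertoli-like, 60.9 ± 15.2 in RT-like, 32.2 ± 15.1 in endothelial-like and 2.50 ± 0.551 in germ-like cells.

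Macrophage-like cells over the limit, 29 cells of 3 libraries, carried on average more RNA of several other cell types than those within it. Their germ genes summed to 1977 ± 911 CPM and their Sertoli genes to 2532 ± 1343, against 343 and 538 CPM within the limit. Leydig genes summed to 606 ± 530 against 54.0 CPM, interstitial genes to 2580 ± 2561 against 1265 and RT genes to 142 ± 227 against 18.4. The spreads between libraries were wide, so these means need not hold in each library. Their own genes were lower, 10455 ± 6283 against 19103 CPM, and *C1qa*, a complement gene of tissue macrophages, stood at 1837 ± 900 against 3660 ± 951. The libraries varied, with macrophage genes at 13268, 3258 and 14841 CPM in control 2, *Sox17*-cKO 1 and *Sox17*-cKO 2.

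The 150 interstitial-like cells over the limit were not 1 population. *Col1a1*, the collagen of stromal cells, stood at 2748 and 25141 CPM in controls 1 and 2 and at 1549 and 27550 CPM in *Sox17*-cKO 1 and 2. *Acta2*, smooth muscle actin, went the other way, at 10573, 5750, 12837 and 5546 CPM, as did *Myh11*, smooth muscle myosin, at 2371, 608, 2668 and 559 CPM. The split followed the replicate number. Cluster 1 held 1, 51, 0 and 21 of these cells in controls 1 and 2 and *Sox17*-cKO 1 and 2, and cluster 4 held 15, 11, 29 and 3, so different clusters made up the class in different libraries.

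The make-up of the barcodes changed with the number of genes. With up to 5000 genes, 67.9% of 1918 barcodes were germ-like, followed by 67.0% of 2882 with up to 6000, 56.0% of 1780 with up to 7000 and 36.8% of 1248 above 7000. Over the same steps the mixed germ and Sertoli cluster went from 4.07% to 7.46%, 13.6% and 24.8%, and RT-like cells from 1.20% to 1.63%, 2.42% and 12.02%. Sertoli-like cells stayed between 15.9% and 20.8%. Interstitial-like cells, 53.1% of barcodes with more than 2000 and up to 3000 genes, were 4.33% just above the limit and 0.240% above 7000 genes. On the lower side of the limit, with more than 4000 and up to 4500 genes, 62.4% were already germ-like.

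**Figure D2:**
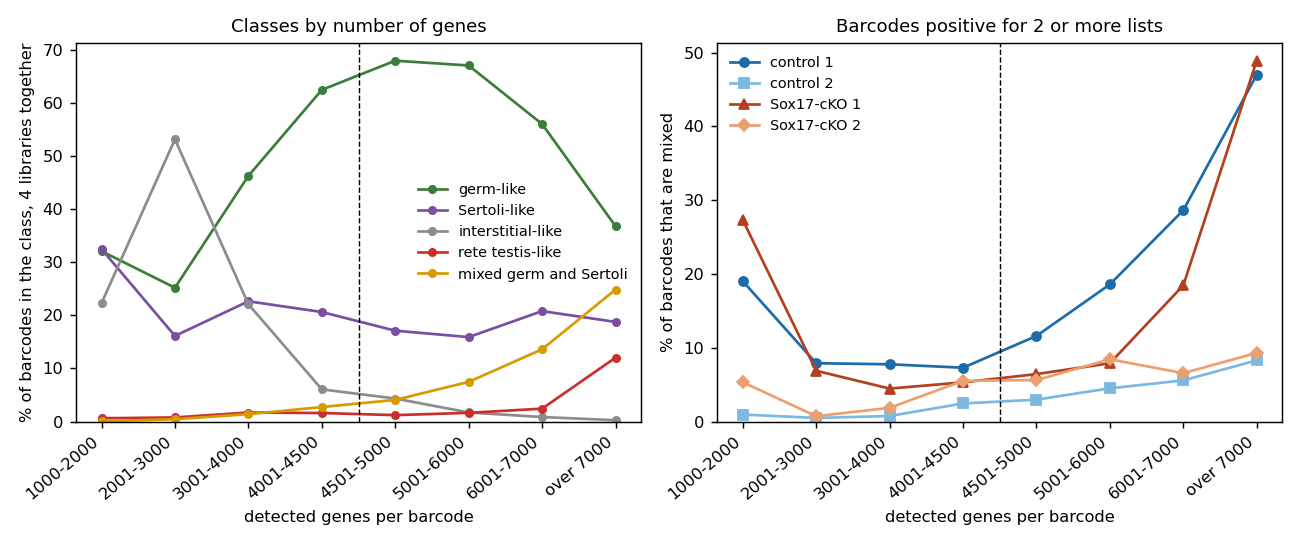
Left, the percent of barcodes in each class by the number of detected genes, all 4 libraries together. Right, the percent of barcodes positive for more than 1 of the germ, Sertoli and interstitial lists in each library. The dashed line marks 4500 genes. With all libraries together, though not in each library, germ-like cells peaked near 67.9% just over the limit. Above 7000 genes they were 36.8%, and the shares of mixed and RT-like barcodes were higher than below.

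A direct count of mixed barcodes was made for each barcode on its own. A barcode was positive for a list when the list's share of its UMIs was at least 0.25 of the median share in barcodes of that class with 1000 to 4500 genes of the same library, and mixed when it was positive for more than 1 of the germ, Sertoli and interstitial lists. By this rule 1018 of the 7828 barcodes were mixed. They were 22.9% and 5.08% of the members in controls 1 and 2 (482 and 105) and 15.6% and 7.49% in *Sox17*-cKO 1 and 2 (302 and 129). The mean was 12.8% ± 8.11 against 7.69% ± 7.07 within the limit, and the two-sided exact permutation p between genotypes was 1. *Sox17*-cKO 1 had 15.6% over the limit and 15.5% within it. The reading also moved with the fraction asked for: at 0.15 the mean over the limit was 16.8%, and *Sox17*-cKO 1 had 19.8% over it against 30.4% within it, whereas at 0.4 the mean was 6.73%. Replicate 1 libraries were high in both genotypes, so the share followed the number and the processing version, and their part cannot be told apart.

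Of the mixed barcodes 814 held germ and Sertoli genes, 149 germ and interstitial genes, 51 Sertoli and interstitial genes, and 4 all of these. A further 345 were positive for no list, and 348 (4.45%) lay near the cut, between 0.2 and 0.3 of the reference for a list. With every barcode thinned to 4000 UMIs and shallower ones left out, 11.9% of the barcodes over the limit and 4.33% of those within it were mixed. Above 7000 genes 47.0% and 8.29% of barcodes were mixed in controls 1 and 2 and 48.9% and 9.30% in *Sox17*-cKO 1 and 2.

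Most mixed barcodes sat in clusters of their own. In the germ and Sertoli cluster 690 of 845 were positive for both lists, 114 for germ alone and 40 for Sertoli alone. The median barcode there held 0.553 of the germ reference and 0.539 of the Sertoli reference, from 29783 UMIs and 6527 genes. Its germ genes summed to 2758 ± 154 CPM and its Sertoli genes to 10500 ± 1323. The largest unnamed cluster held 247 barcodes, of which 129 were positive for germ and interstitial genes, 81 for germ and 36 for interstitial genes alone. Its leading genes were *Slpi*, *Upk3b* and *Lockd*. *Slpi* and *Upk3b* rested on few cells, since 4 of the 247 carried 3 or more UMIs of each. In the cluster with Sertoli and interstitial genes 41 of 62 were positive for both. Scrublet, which scores how much a barcode looks like the sum of a pair of others, called 276 of the 7828. All of these calls fell in replicate 2 libraries, 127 for the control and 149 for the knockout. Replicate 1 libraries had 0 calls on either side of the limit. Their median scores over it were nevertheless higher, at 0.059 (control) and 0.058 (knockout), beside 0.035 and 0.045 for replicate 2. The reason was not tested, and 0 calls do not show that these libraries were free of doublets.

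Inside the germ-like and Sertoli-like classes mixed barcodes were few, which also follows in part from the naming. They were 1.41% of germ-like cells over the limit against 5.76% within it and 4.53% of Sertoli-like cells against 13.3%. For RT-like cells the rule says little, because it holds no RT list and an RT cell joined to 1 other cell would be positive for 1 list at most. Interstitial-like cells went the other way, with 12.7% over the limit and 2.39% within it.

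When each cell was thinned to 4000 UMIs, the cells over the limit still showed slightly more genes. Germ-like cells held 2085 ± 20.05 genes at that depth against 2037 ± 36.1 within the limit, where 2133 of 8216 cells were too shallow and were left out. Sertoli-like cells held 2067 ± 38.3 against 1972 ± 53.5. The mixed germ and Sertoli cluster held 2161 ± 36.3 genes over the limit. Without thinning, the germ-like medians over the limit had been 5482 genes, so most of the gap between the ranges was not seen at equal depth.

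The germ-like cells fell into 7 clusters, and the clusters passed the limit in very different parts. Cluster 11, led by *Rhox10*, *Sall4* and *Trim71*, passed in 84.5% ± 8.01 of its cells (73.5% and 92.7% in controls 1 and 2, 85.7% and 86.0% in *Sox17*-cKO 1 and 2). Cluster 7, led by *Crabp1*, *Gm26785* and *Mirt1* and holding genes of differentiating spermatogonia, passed in 71.7% ± 11.8 (57.1%, 82.7%, 67.3% and 79.6%). Cluster 12, led by *Egr4*, *Foxf1* and *Upp1* and holding genes of undifferentiated spermatogonia, passed in 58.4% ± 23.1, with control 1 low at 28.1% beside 83.4%, 56.4% and 65.5%. These clusters had the highest shares and control 1 was the lowest library in each.

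The other germ-like clusters passed in smaller parts. Cluster 0, led by *Esx1*, *Dmrtb1* and *Upb1* and also holding genes of differentiating spermatogonia, passed in 34.9% ± 13.4. Cluster 10, led by *Fabp9*, *Ldhc* and *1700102P08Rik* and holding leptotene, zygotene and pachytene genes, passed in 29.2% ± 3.72. Cluster 6, led by *Inca1*, *Pbx3* and *Terb1* and holding genes from preleptotene to zygotene, passed in 14.1% ± 3.39. Cluster 3, to which no stage could be given, passed in 2.96% ± 2.41. Its 2441 barcodes had a median of 1413 genes, 3175 UMIs and 19.3% mitochondrial UMIs, and 60 of them lay over the limit. Without integration a cluster of 1951 barcodes at a median of 26.1% mitochondrial UMIs, 60 of them over the limit, stayed unnamed, so whether such barcodes count as germ-like depended on the clustering.

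The stages were weighted differently on each side. Cluster 7 was 28.0% ± 5.81 of the germ-like cells over the limit and 6.51% ± 2.13 within it, and cluster 11 was 22.1% ± 4.60 against 2.42% ± 1.18, each higher in 4 of 4 libraries. Cluster 12 was 13.3% ± 2.46 against 5.99% ± 3.17, but in control 1 it was 9.71% against 10.4%. Cluster 6 was lower, at 5.85% ± 2.06 against 22.3% ± 7.72, and so was cluster 3, at 1.23% ± 0.826 against 27.2% ± 9.55. Above 4500 genes the share of cluster 11 was higher in each step of the gene count, from 12.7% of germ-like cells with up to 5000 genes to 21.2%, 28.9% and, above 7000, 37.9%, while cluster 0 went from 31.5% to 11.98%.

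**Figure D3:**
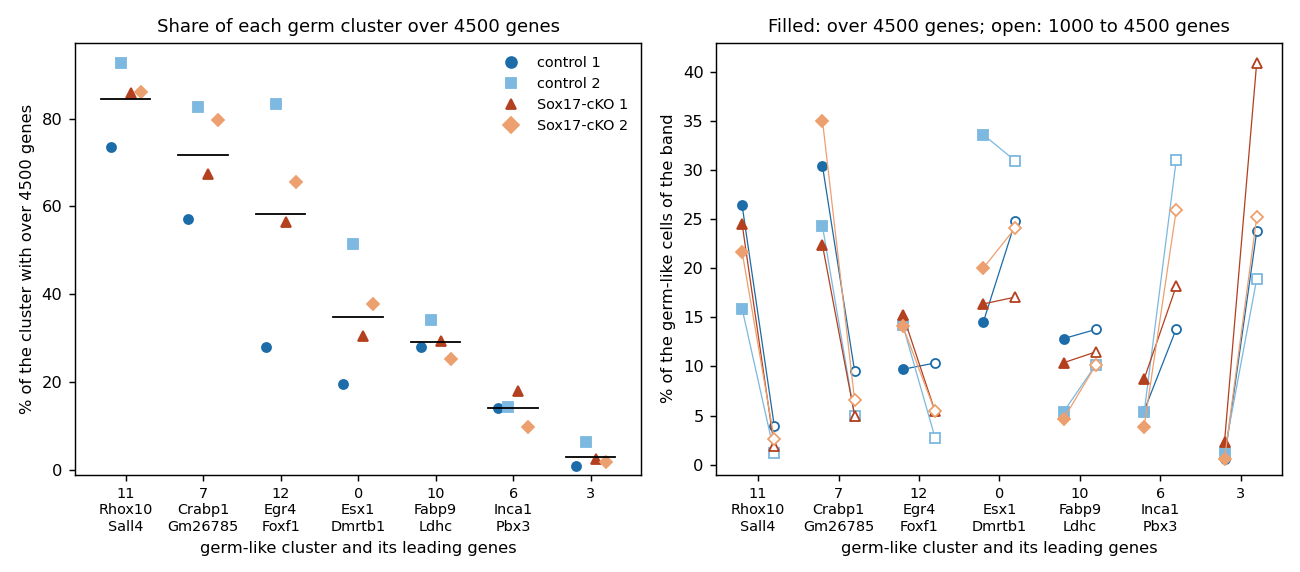
Left, the percent of each germ-like cluster with over 4500 genes, by library, with the mean as a line. Right, each cluster's share of the germ-like cells of its range, filled over 4500 genes and open within 1000 to 4500. Clusters 7 and 11 made up 6.51% and 2.42% of the cells within the limit and 28.0% and 22.1% of those over it.

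The stage genes placed these cells as follows. The 12 genes of undifferentiated spermatogonia summed to 1163 ± 85.2 CPM in the cells of cluster 12 over the limit, to 662 ± 39.8 in cluster 11 and to 234 ± 27.4 in cluster 7. *Zbtb16*, a transcription factor of undifferentiated spermatogonia, stood at 297 ± 25.9, 142 ± 8.28 and 51.8 ± 4.18 CPM in the same order, and *Nanos3*, an RNA-binding protein of early germ cells, at 109 ± 17.8, 35.5 ± 2.44 and 2.46 ± 0.617. *Kit*, the receptor that marks differentiating spermatogonia, ran the other way, at 14.6 ± 4.24 CPM in cluster 12, 131 ± 25.4 in cluster 11 and 249 ± 63.3 in cluster 7. *Ccnd2*, a G1 cyclin, was highest in cluster 11 at 530 ± 135 CPM, beside 315 ± 85.4 in cluster 12 and 93.8 ± 21.1 in cluster 7. Cluster 11 lay between the others in *Zbtb16*, *Nanos3* and *Kit*, but not in the summed genes of differentiating spermatogonia, at 3131 ± 576 CPM beside 3083 ± 299 in cluster 7 and 2247 ± 456 in cluster 12.

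In the meiotic clusters *Stra8*, which is needed for entry into meiosis, stood at 886 ± 164 CPM in cluster 6 over the limit, and at 608 ± 138 and 547 ± 24.8 CPM in clusters 7 and 11. *Prdm9*, the methyltransferase that marks recombination hotspots, was at 195 ± 20.3 CPM in cluster 6 and *Sycp3*, of the chromosome axis, at 2193 ± 352 there and 3508 ± 344 in cluster 10. The pachytene genes summed to 4022 ± 1434 CPM in the cells of cluster 10 over the limit and 2094 ± 451 in those within it. In this cluster 1 library stood apart: *Ldhc*, the testis lactate dehydrogenase, was at 883, 527 and 817 CPM in controls 1 and 2 and *Sox17*-cKO 1 and at 82.0 CPM in *Sox17*-cKO 2, which gave 45 cells. *Piwil1*, a PIWI protein of pachytene cells, followed at 425, 372, 380 and 46.6 CPM, and *Hspa2*, a chaperone of spermatocytes, at 1452, 1363, 1521 and 515 CPM. At resolution 0.8 a cluster of 118 cells led by *Ldhc*, *Fabp9* and *Piwil1* appeared, with 95 cells over the limit. Controls 1 and 2 gave 42 and 24 of these, and *Sox17*-cKO 1 and 2 gave 27 and 2. How far this sets the values of *Sox17*-cKO 2 was not tested.

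The share of UMIs on X-linked genes, added after these values were seen, differed between the ranges in cluster 10 as well. As background, the X chromosome is silenced in pachytene spermatocytes. In the cells of cluster 10 over the limit X-linked genes took 1.17% and 1.28% of UMIs in controls 1 and 2 and 1.15% and 2.38% in *Sox17*-cKO 1 and 2, against 2.08%, 2.43%, 2.31% and 2.42% within the limit. The share was lower over the limit in 4 of 4 libraries, but in *Sox17*-cKO 2 by little. In the other 6 germ clusters the means of the ranges were close, from 2.06% against 2.01% in cluster 12 to 2.99% against 2.94% in cluster 6. They were 2.17% against 2.08% in cluster 7, 2.14% against 2.04% in cluster 11 and 2.78% against 2.65% in cluster 3, and in clusters 3, 7, 11 and 12 the share was higher over the limit in 4 of 4 libraries. In cluster 0 it was 2.41% against 2.43% and higher in 1 of 4.

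Gene by gene, germ-like cells over and within the limit were compared as summed UMIs per library, scaled with TMM. A gene was counted as higher or lower when its mean log2 ratio lay beyond 1 and all 4 libraries shared the sign. Of 15328 genes 751 (4.9%) were higher and 291 (1.9%) lower by this rule. Most were rare transcripts: 674 and 194 of them stayed under 20 CPM on both sides. Without TMM the counts were 1027 and 182, and the median over all genes was 0.12 on the log2 scale in place of 0.00. The count of higher genes was 1158 without control 1 and 465 without control 2. With cluster 3 left out, a setting added after the data were seen, 835 genes were higher and 274 lower.

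Of the genes that reached 100 CPM on either side 4 were higher and 32 lower over the limit. *Sall4*, a spermatogonial transcription factor (chromosome 2, 168748332 to 168767943, minus strand), was at 112 and 102 CPM in controls 1 and 2 and 130 and 137 CPM in *Sox17*-cKO 1 and 2, against 68.0, 19.2, 53.1 and 41.7 CPM within the limit. The ranges did not overlap, and the mean log2 ratio was 1.41 ± 0.70 (SD, n = 4). *Ccnd2* was at 197 ± 49.7 against 80.9 ± 30.1 CPM (1.23 ± 0.61), *Trim71*, an RNA-binding protein, at 116 ± 17.5 against 55.5 ± 26.5 CPM (1.12 ± 0.71), and *Tubb5*, a beta-tubulin, at 475 ± 98.7 against 228 ± 95.6 CPM (1.04 ± 0.63). Inside clusters, a comparison described further on, the ratio of *Ccnd2* was -0.19 ± 0.09 and that of *Tubb5* -0.05 ± 0.12, so the direction was not kept. There *Sall4* and *Trim71* were not tested. *Sall4* and *Trim71* were also leading genes of cluster 11.

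The lower genes were of several kinds. *Gm42418* and *AY036118*, noncoding loci whose annotated spans overlap on chromosome 17 (39846958 to 39848788 on the plus strand and 39847113 to 39848035 on the minus strand) and that lie over ribosomal RNA sequence, were at 6018 ± 2192 against 14098 ± 4827 CPM and 405 ± 13.9 against 1257 ± 438 CPM. Because they overlap, how their reads were divided is uncertain. *Pbx3*, a homeobox gene, was at 41.3 ± 6.97 against 132 ± 62.6 CPM, *Prss50*, a testis serine protease, at 130 ± 41.1 against 415 ± 249, and *Inca1* at 57.7 ± 4.67 against 139 ± 54.2. *Pbx3* and *Inca1* were leading genes of cluster 6. *H2-K1*, an MHC class I gene, was at 134 ± 12.6 against 350 ± 102 CPM. Replication-linked or testis histones were among them, with *Hist1h2ba* at 53.3 ± 28.8 against 116 ± 30.02 and *Hist1h1e* at 52.0 ± 21.2 against 122 ± 29.0.

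The lists of stage genes were read against the 4.9% of all genes that were higher and the 1.9% that were lower. Of the 12 genes of undifferentiated spermatogonia tested, 6 were higher over the limit and 0 lower, with a median log2 ratio of 0.85 against 0.00 over all genes. *Upp1*, uridine phosphorylase, was at 31.4 ± 5.56 against 9.72 ± 6.15 CPM, *Lin28a*, an RNA-binding protein that blocks let-7, at 62.8 ± 16.5 against 22.8 ± 9.88 CPM, and *Zbtb16* at 91.7 ± 12.8 against 44.2 ± 16.4 CPM. The others were *Utf1*, *Sall4* and *Nanos3*. Of 10 genes of differentiating spermatogonia 2 were higher (*Ccnd2* and the DNA methyltransferase *Dnmt3b*) and 0 lower, with a median of 0.39, and *Kit* was at 135 ± 26.4 against 105 ± 31.5 CPM. The list members were chosen with earlier results of these data known, so the counts are a description.

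Lists of early meiosis had medians below 0, and 1.9% of all genes were lower by the rule. Of 10 preleptotene genes 0 were higher and 2 lower (*Prdm9* and *Meioc*), with a median of -0.69, and of 14 leptotene and zygotene genes 0 were higher and 2 lower (*Rad51ap2* and *Dmc1*), with a median of -0.73. *Prdm9* was at 23.9 ± 7.45 against 64.2 ± 15.98 CPM and *Dmc1*, the meiotic strand-exchange protein, at 75.8 ± 4.04 against 158 ± 44.5 CPM. Of 18 meiotic recombination genes 5 were lower, *Prdm9*, *Msh5*, *Rad51ap2*, *Dmc1* and *Hfm1*, with a median of -0.71. The 14 genes of the synaptonemal complex and chromosome axis had a median of -0.71, with 2 lower, *Rad21l* and *Meioc*. With cluster 3 left out, 4 preleptotene, 5 leptotene and zygotene, 7 recombination and 3 axis genes were lower, with medians of -0.62, -0.85, -0.76 and -0.80. In that setting 5 undifferentiated genes were higher, with a median of 0.78. *Stra8*, which is on the preleptotene and the differentiating list, was at 395 ± 57.9 against 349 ± 46.2 CPM.

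Some pachytene and piRNA genes were higher over the limit, beside 4.9% of all genes higher and 1.9% lower by the rule. *Piwil1* is on both lists. Of 14 pachytene genes 3 were higher and 0 lower, with a median of 0.26: *Ldhc* at 82.5 ± 70.5 against 26.2 ± 25.6 CPM, *Piwil1* at 51.0 ± 29.6 against 14.6 ± 9.21 CPM and the rare *Insl6* at 4.18 ± 3.14 against 1.35 ± 1.11 CPM. Of 18 piRNA pathway genes, which silence transposons in germ cells, 3 were higher and 0 lower, with a median of 0.40: *Piwil1*, *Piwil4* at 14.4 ± 1.59 against 6.05 ± 3.12 CPM and *Tdrd6* at 2.41 ± 1.75 against 0.659 ± 0.610 CPM. Of 15 glycolysis genes 1 was higher, *Ldha*, near the share over all genes, and the median was 0.59.

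Other lists moved little or had too few members past the rule, by which 4.9% of all genes were higher and 1.9% lower. DNA replication (16 genes, median -0.07), mitosis (15 genes, 0.12), apoptosis (13 genes, -0.03), and nuclear-retained and stress RNA (12 genes, 0.12) held 0 genes past the rule in either direction. The RNA binding list of spermatocytes (16 genes, -0.07) held 1 lower, *Meioc*, the testis metabolic isoforms (8 genes, 0.36) 1 higher, *Ldhc*, and the spermatid list (4 genes, -0.11) 1 higher, *Tnp1*. The medians of DNA replication, RNA binding, spermatid and apoptosis genes change sign without TMM, so no direction is given for them. The 15 germ genes held 0 past the rule, and their median of 0.18 and their summed level, lower in 3 of 4 libraries, differ in sign.

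Genes of other cell types in the germ-like cells over the limit were read against the 4.9% of all genes higher and 1.9% lower. Of 16 Sertoli genes 0 were higher and 4 lower (*Cst9*, *Defb36*, *Hsd17b1* and *Rhox8*), with a median of -0.80, and *Cst9* was at 58.1 ± 36.3 against 136 ± 106.97 CPM. Their summed level was 416 ± 265 against 775 ± 557 CPM and lower in 4 of 4 libraries. Of 20 interstitial genes 1 was higher, *Dlk1*, about the share over all genes, with a median of -0.15. Leydig (4 genes, median -0.67), macrophage (8, -0.32), endothelial (8, 0.58), RT (6, 0.37) and mesothelial (1, 0.01) lists held 0 past the rule, and the 1 blood gene tested, *Cd3e*, was lower. The 13 genes of mitochondrial DNA had a median of -0.67 with all 13 negative, and *mt-Nd6* was past the rule at 47.6 ± 17.4 against 105 ± 63.4 CPM. Their part in the other differences was not tested.

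To set cells of closer stage side by side, the ratio was also taken inside clusters and averaged. Clusters 0, 6, 7, 10 and 12 were used, which had at least 20 cells on each side of the limit in each library. Clusters 3 and 11 had too few. Nearly all of the differences were then smaller than the rule asked for: of 8528 genes 0 were higher (0%) and 3 lower (0.0352%). Over the same 8528 genes the comparison of all germ-like cells gave 25 higher and 100 lower, a contrast added after the values were seen. That comparison held clusters 3 and 11 as well, so the genes were the same but the cells were not. The mean over clusters can also hide a larger ratio in 1 of them. *Usp2*, for example, was at 0.61 on average and at 2.42 in cluster 10. The median size of the log2 ratio was 0.233 over all germ-like cells and 0.0877 inside clusters. Beyond 0.5 in size, with all 4 libraries on the same side, 13 genes were higher and 20 lower inside clusters.

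The 3 lower genes were *AY036118*, *Gm42418* and *Lars2*, a mitochondrial leucyl-tRNA synthetase (chromosome 9, 123366927 to 123462666, plus strand). *AY036118* differed by -1.52 and -1.16 on the log2 scale in controls 1 and 2 and by -1.52 and -1.09 in *Sox17*-cKO 1 and 2, *Gm42418* by -1.32, -1.06, -1.22 and -1.15, and *Lars2* by -1.07, -1.14, -1.05 and -1.18. The libraries lay close together and every one was negative. By cluster *AY036118* ran from -0.86 in cluster 12 to -2.31 in cluster 10, so the meiotic clusters 6 and 10 differed most in this gene.

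Inside clusters the medians of the meiotic lists lay near 0, over the genes frequent enough to be tested. The leptotene and zygotene median was -0.05 (11 genes), the preleptotene median -0.01 (6), the pachytene median 0.04 (8), the recombination median 0.01 and the glycolysis median -0.04. Single clusters could differ from this average, as the summed pachytene genes of cluster 10 did above. The median over all genes was 0.00, with 51.5% of the 8528 genes positive and 18.7% positive in all 4 libraries. Of the undifferentiated list only 1 gene was frequent enough to enter, at 0.13. Differentiating spermatogonia genes kept a median of 0.21 (9 genes). The piRNA median was 0.17, with 14 of 14 genes positive and 9 of them positive in all 4 libraries, and the mitosis median was 0.17, with 15 of 15 positive and 10 in all 4. *Aurkb*, a mitotic kinase, was among the latter list at 0.40 ± 0.25.

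Mitochondrial and Sertoli genes had negative medians inside clusters as well, though 0 of them passed the rule there. Of all 8528 genes 48.5% were negative, and 18.2% were negative in all 4 libraries. All 13 mitochondrial genes were negative in 4 of 4 libraries, with a median of -0.37, from -0.25 ± 0.05 for *mt-Nd4* to -0.52 ± 0.08 for *mt-Nd6*. The 13 Sertoli genes tested were all negative, with a median of -0.34, and *Rhox8* was at -0.58 ± 0.23. The 8 interstitial genes tested had a median of -0.06. These values are sums over UMIs, and what part free RNA in the droplets takes in them was not tested.

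**Figure D4:**
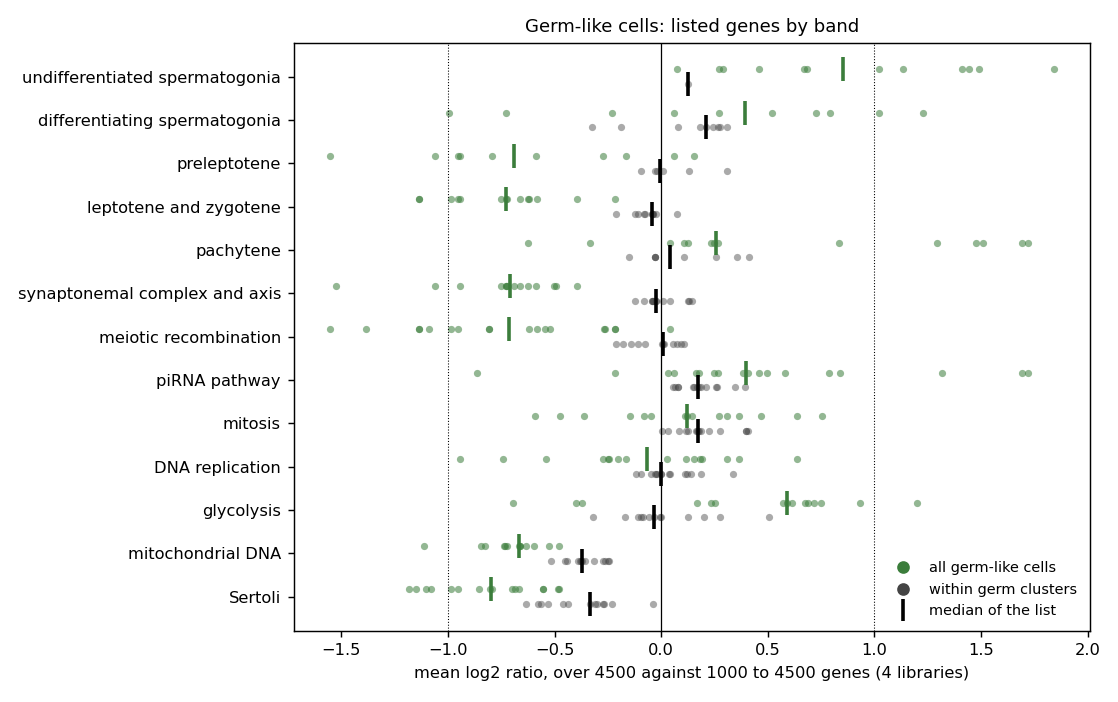
Mean log2 ratio of germ-like cells over 4500 genes to those within 1000 to 4500 for each gene of each list, green over all germ-like cells and grey inside clusters, with bars at the list medians and dotted lines at -1 and 1. Undifferentiated genes sat at a median of 0.85 and recombination genes at -0.71 over all germ-like cells, and the grey medians were -0.37 for mitochondrial, -0.34 for Sertoli, 0.21 for differentiating and 0.17 for piRNA and mitosis genes.

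Between genotypes the germ-like cells over the limit gave 0 of 16190 genes past an adjusted p of 0.05 in edgeR's quasi-likelihood test (0%), with 32 at an unadjusted p under 0.05 and 0 by DESeq2. The 3 genes with the smallest p were low: *Lgi1* at 0.828 and 0.778 CPM in controls 1 and 2 against 2.37 and 3.57 CPM in *Sox17*-cKO 1 and 2, *Gm15124* at 0.966 and 0.945 against 0.224 and 0.238 CPM, and *Lgals12*, under 0.5 CPM in each. Their groups did not overlap, as was so for 16.3% of all genes tested. Without control 2 the count was 2. Whether the genotype difference changed across the limit was tested as an interaction, with library as a block. This gave 0 of 15328 genes called by edgeR (0%), 91 at an unadjusted p under 0.05 and 0 by DESeq2.

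Sertoli-like cells over the limit gave 0 of 12778 genes by edgeR (0%), with 69 at an unadjusted p under 0.05 and 0 by DESeq2. *Sfn*, the epithelial 14-3-3 protein, was at 9.22 and 12.1 CPM in controls 1 and 2 against 2.98 and 1.79 in *Sox17*-cKO 1 and 2, and *Col9a3* at 3.31 and 5.31 against 18.3 and 11.7 CPM. Neither passed the adjusted threshold. Without *Sox17*-cKO 1 the count was 4, and without a filter on low counts it was 2. Interstitial-like cells gave 0 of 8359 genes by edgeR (0%), with 56 unadjusted and 0 by DESeq2, in a class whose clusters differed between libraries. There *Ptp4a3*, a phosphatase, was at 32.3 and 30.8 against 85.2 and 94.0 CPM. The count was 10 with no filter, 13 with the replicate number as a block and 3 without *Sox17*-cKO 1. In these tests no gene of any list passed.

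RT-like cells were compared between genotypes after the class sizes had been seen, so this test was not planned. It called 27 of 11540 genes (0.234%), 8 higher (0.0693%) and 19 lower (0.165%) in *Sox17*-cKO. *Sox17*-cKO 1 gave only 10 of these cells and 417667 UMIs. *Sox17* itself, with 283, 1529, 10 and 105 UMIs, was lower by 3.22 ± 0.28 on the log2 scale (SE; edgeR adjusted p = 0.00309). The summed Sertoli genes of these cells, 3877 and 2705 CPM in controls 1 and 2 and 3232 and 2947 CPM in *Sox17*-cKO 1 and 2, overlapped between genotypes. Their summed endothelial genes, 407 and 540 CPM in controls against 249 and 249.9 CPM in *Sox17*-cKO, did not overlap. Nor did the summed mesothelial genes, at 543 and 508 against 383 and 407 CPM. Most of the mesothelial sum was *Wt1*, at 529 and 481 CPM in controls 1 and 2 and 342 and 386 CPM in *Sox17*-cKO 1 and 2. The study treats *Wt1* as a marker shared by RT and Sertoli cells, so this sum need not stem from mesothelial cells. The part of the endothelial and mesothelial genes in the calls was not tested.

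Of the lower genes *Ap3b2*, a subunit of the AP-3 adaptor, stood at 126 and 141 CPM in controls 1 and 2 and at 0 and 1.63 CPM in *Sox17*-cKO 1 and 2 (152, 800, 0 and 6 UMIs; log2 -6.52 ± 0.45, edgeR adjusted p = 0.00187). Its annotated neighbour *BC048679* on chromosome 7 (81494275 to 81498281, minus strand, beside *Ap3b2* at 81460399 to 81493925) went from 509 and 292 to 9.58 and 4.89 CPM (log2 -6.15 ± 0.51). *Mme*, the peptidase neprilysin, went from 456 and 531 to 50.3 and 50.8 CPM (log2 -3.29 ± 0.29), and *Lbhd2* from 126 and 140 to 9.58 and 12.5 CPM (log2 -3.50 ± 0.30). The edgeR adjusted p was 0.00309 for *BC048679*, *Mme* and *Lbhd2* alike. In every one of these genes both control libraries lay far above both *Sox17*-cKO libraries.

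Of the higher genes *Dcpp1* rose from 2.49 and 3.34 CPM in controls 1 and 2 to 45.5 and 39.9 CPM in *Sox17*-cKO 1 and 2 (log2 3.75 ± 0.40, edgeR adjusted p = 0.00907). Its paralogue *Dcpp3* had 0 and 3 UMIs in controls and 8 and 86 in *Sox17*-cKO (edgeR adjusted p = 0.0155), and reads of near-identical paralogues may have been shared between them. *Mest*, an imprinted gene, rose from 9.96 and 21.6 to 330 and 136 CPM (log2 3.74 ± 0.51, edgeR adjusted p = 0.0297). *Sgk1*, a kinase that controls sodium transport, rose from 40.7 and 68.3 to 237 and 246 CPM (log2 2.13 ± 0.29, edgeR adjusted p = 0.0307). *Wfdc2*, a WAP-domain protein of duct epithelia, rose from 83.0 and 79.4 to 776 and 378 CPM (log2 2.84 ± 0.40, edgeR adjusted p = 0.0327).

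**Figure D5:**
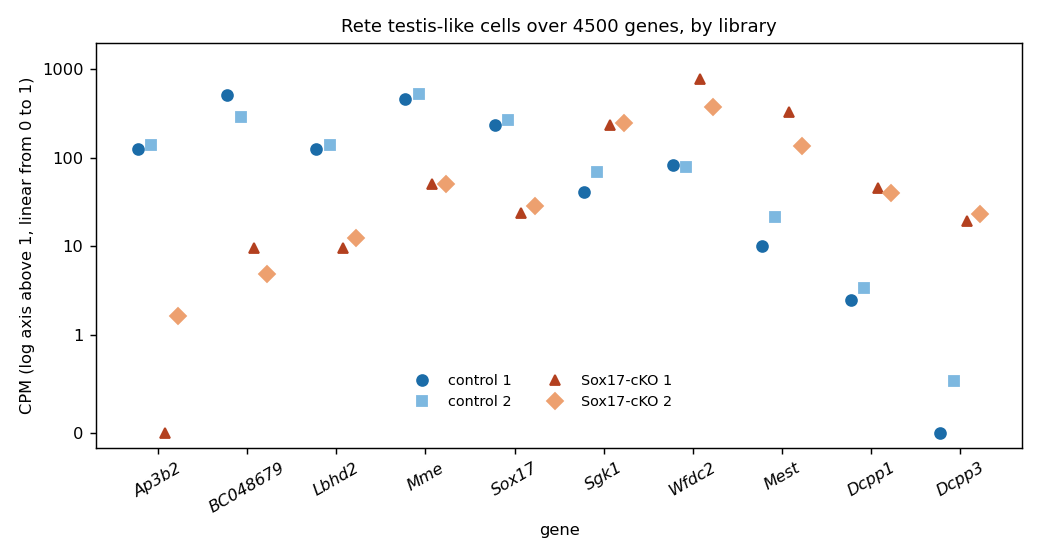
Level in CPM of 10 genes in RT-like cells with over 4500 genes, 1 point per library, on a symmetric log axis that is linear near 0. The 10 genes, 5 lower and 5 higher in *Sox17*-cKO, were picked from called genes whose groups did not overlap. The lack of overlap and the even split therefore follow from the choice. Of all called genes 19 were lower and 8 higher, and 33.5% of all genes tested did not overlap.

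The other called genes were *Rspo1*, a secreted activator of WNT signalling, *Col6a4*, *Tspan13*, *Tnfaip2*, *Gas2l3*, *Pcsk6*, *Abcb1a*, *5930412G12Rik*, *Cplx3*, *Gpm6b*, *Grin2b*, *Gm14964*, *Col6a6* and *Grm4*, which were lower, and *Vcan*, *Ly6e* and *Col15a1*, which were higher. The groups did not overlap in any of the 27, as was so for 33.5% of all genes tested. Of the 27, 22 passed with each library left out in turn and all 27 passed by DESeq2, with the replicate block and without a filter. A fit with a library left out has 1 library in a genotype, which is assumed to vary like the other genotype, so it adds no replicate check. *Pcsk6*, *Abcb1a*, *Cplx3* and *Grm4* kept their sign but did not pass in every fit with a library left out, and *Dcpp3* was too low to be tested without *Sox17*-cKO 2 and passed in the other 3. The number called depended on the fit: it was 60 by DESeq2, 320 with the replicate block, 272 without a filter, 123 without control 1, 139 without control 2, 280 without *Sox17*-cKO 1 and 50 without *Sox17*-cKO 2, with 817 genes at an unadjusted p under 0.05.

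The same test on the RT-like cells with 1000 to 4500 genes called 9 of 6858 genes (0.131%). Those cells come from the same libraries and pups, so they are no independent check. Of the 27 genes called over the limit, 6 were also called there, and the 21 that could be tested there kept their sign. The log2 ratio there was -3.15 for *Mme*, which was called. It was 4.07 for *Mest* and 2.08 for *Sgk1*, which were not called (edgeR adjusted p = 0.103 and 0.293). The RT marker genes themselves did not pass over the limit (0 of 8 tested by edgeR, 2 at an unadjusted p under 0.05), with a median log2 ratio of 0.32 against 0.01 over all genes. *Pax8* was at 313 and 476 CPM in controls 1 and 2 and 259 and 430 CPM in *Sox17*-cKO 1 and 2, and the groups overlapped. The groups did not overlap for *Krt8*, at 83.0 and 141 against 163 and 235 CPM, or *Mia*, at 78.0 and 221 against 225 and 821 CPM. Nor did they for *1500015O10Rik*, at 2050.1 and 2237 against 3881 and 2979 CPM, or *Rmst*, at 639.7 and 803 against 637 and 606 CPM. Such a lack of overlap was seen in 33.5% of all genes tested, and none of these markers passed the adjusted threshold. *Nr5a1* was at 42.3 and 70.9 against 55.1 and 75.5 CPM.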

How the data were processed

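Single-cell 3' RNA was measured in 4 libraries, 2 control and 2 *Sox17*-cKO. The deposited values are whole UMI counts per gene and barcode that the authors made with Cell Ranger (6.0.2 for replicate 1, 6.1.2 for replicate 2, per the file headers) against mm10, limited to its cell-containing barcodes, without normalization. The labels name the v3 kit, and strand use in counting is not given in the sources used here. Coordinates came from GENCODE vM21.

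Barcodes with at least 1000 genes were integrated by canonical correlation and clustered in Seurat 5.3.0 (R 4.3.3; 2000 variable features without *Sox17*, 20 components, resolution 0.4). No mitochondrial limit was applied and doublets were kept. A cluster took the list whose summed level came nearest to its highest over clusters, where at least 3 markers stood at 2 times or more of their level in clusters low for that list; it was called mixed where more than 1 of the germ, Sertoli and interstitial lists reached 0.25 of their highest, and stayed unnamed where its leading genes disagreed, or where it was shallow or very high in mitochondrial UMIs. Scrublet scores came from Scanpy 1.11.5, run under Python 3.11.15 with SciPy 1.17.1 and NumPy 2.4.6.

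UMIs were summed per library and class. Genotypes were compared with edgeR 4.0.16 (TMM, filterByExpr, quasi-likelihood F test, Benjamini-Hochberg, threshold 0.05, two-sided) and DESeq2 1.42.0. Ratios over and within the limit used TMM-scaled CPM with a prior count of 2, while CPM levels are relative to the class's whole UMI sum, without TMM. Shares have exact binomial intervals and an exact permutation test over libraries. The steps were tested on simulated data.

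Named were list genes, the 3 leading genes of larger clusters, *Sox17* and *Nr5a1*. Between gene ranges up to 10 genes of at least 100 CPM past the rule were named in each direction, and 5 inside clusters. Per genotype test up to 5 called genes per direction were named, by smallest adjusted p among those whose groups did not overlap. Where none was called, the 3 with the smallest unadjusted p were named. The members and lists were chosen with earlier results of these data known. A result that this rule would name in Sertoli-like cells is not reported here.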

Additional observations from a re-analysis of the deposited data

Results flagged for a closer look

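In germ-like cells the summed level of the 20 interstitial genes moved in opposite directions across the limit in the genotypes. On the log2 scale, cells over 4500 genes against cells with 1000 to 4500 differed by 0.39 and 0.28 in controls 1 and 2 and by -0.11 and -0.10 in *Sox17*-cKO 1 and 2. The difference of these sums was not tested. Gene by gene, the edgeR interaction test called 0 of the 20 interstitial genes, with 4 at an unadjusted p under 0.05 and a median of -0.40. *Col1a2*, a stromal collagen, had the largest evidence among them, at -1.11 ± 0.24 (SE).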

How the results depend on the processing

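The share of barcodes over the limit was 13.1% at a limit of 5000 genes, 25.8% of barcodes with at least 1000 genes, and 15.7 to 17.8% with 1 library left out. The germ-like share was 68.0% without mixed barcodes, 67.1% without the top 10% of Scrublet scores and 68.0% without barcodes over 10% mitochondrial UMIs, where the Sertoli-like share was 9.35%. The cluster with Sertoli and interstitial genes was 0% at resolution 0.8, where 61 such barcodes took the Sertoli-like name because their interstitial level was 0.24 of the highest and not 0.25, and 0.0295% without the top Scrublet scores, and unnamed clusters were 0.243% there. Mixed barcodes ranged from 9.40 to 15.3% with 1 library left out.

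Between gene ranges, higher and lower germ cell genes were 1233 and 581 with 5000 or more against 1000 to 4000 genes. They were 465 to 1158 and 268 to 421 with 1 library left out. Higher genes were 484 after thinning, and lower genes 188 without barcodes over 10% mitochondrial UMIs and 182 without TMM. Inside clusters higher genes were 4 with the wider gap between ranges, 2 without a filter, 0 with any library left out and 25 over all germ-like cells, where lower genes were 100, and lower genes were 3 with any library left out. The cause was not tested.

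Between genotypes, leaving out 1 library gave 0 to 2 genes in germ-like, 0 to 4 in Sertoli-like, 0 to 3 in interstitial-like, 0 to 11 in the interaction and 50 to 280 in RT-like cells. Without a filter the counts were 2 in Sertoli-like, 10 in interstitial-like and 272 in RT-like cells, and DESeq2 gave 60 in RT-like cells. With the replicate number as a block they were 0 in germ-like and Sertoli-like, 13 in interstitial-like and 320 in RT-like cells. The interaction gave 0 when its library block was left out. Deviations of same-numbered libraries correlated at 0.711, 0.552, 0.649 and 0.199 in germ-like, Sertoli-like, interstitial-like and RT-like cells, but the labels state no pairing and there are only 2 pairs. No named gene changed sign under those of these settings in which it was tested, which do not include the ratio inside clusters. Of named genes, *Sfn* and *Gm13889* passed without a filter, *Gm26532*, *Ptp4a3* and *Gm13889* with the block, and *Elfn2*, in the interaction, without *Sox17*-cKO 1. With 2 libraries per genotype, share tests could not go below an exact p of 0.333.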
